A study of Mus musculus with 8 samples.

Results

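The U5 small nuclear ribonucleoprotein (snRNP) is one of the RNA and protein particles that assemble into the spliceosome, the machine that removes introns from pre-mRNA. Its RNA contacts the exon ends that are to be joined, and its proteins include the large scaffold of the catalytic center and the GTPase and helicases that rearrange the spliceosome as it is activated. The particle joins the U4 and U6 snRNPs as the tri-snRNP before it enters the spliceosome. The transcripts described here are *Eftud2*, which encodes the GTPase and was the target of the knockdown (KD), and those of 7 protein partners in the same particle, *Prpf8*, *Snrnp200*, *Ddx23*, *Prpf6*, *Snrnp40*, *Txnl4a* and *Cd2bp2*. They were chosen by name as known U5 proteins, 8 of the 55385 genes counted, and all 8 were among the 17445 genes that passed the filter on low counts.

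The experiment measured poly(A)-selected RNA from R1 mESCs, a mouse embryonic stem cell line labelled as wild type in every group. The question addressed here is whether the transcripts of the partners rise or fall when *Eftud2* is knocked down. Cells carried lentiviral shRNA1 (3 libraries) or shRNA2 (3 libraries) against *Eftud2*, or the non-targeting nt-shRNA (2 libraries). The study places the target of shRNA1 in the untranslated end of the *Eftud2* transcript and that of shRNA2 in its coding sequence. All 3 groups were grown with N2B27 medium, 2i and Lif on poly-L-ornithine and laminin, were infected for 2 days and were then selected with puromycin for 3 days. Each library is therefore a pool of infected cells from 1 line, and the controls carried a virus and its selection as well. In such bulk RNA, fewer cells expressing a transcript and less of it per cell cannot be told apart. The titles call the libraries biological replicates without saying which cultures were separate, so the p-values measure the spread between these libraries.

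Libraries held between 19569525 and 29871048 counts, and 3 counts correspond to between 0.1045 and 0.1481 CPM (a gene's counts scaled to a common library total, here with edgeR's TMM factors). All 7 markers of pluripotent stem cells were detected in every library. Their summed level was 4187 to 4266 CPM with nt-shRNA, 4645 to 4780 CPM with shRNA1 and 5532 to 5685 CPM with shRNA2, and so moved with the groups. *Nanog* (a mean of 912, 1340 and 1549 CPM in nt-shRNA, shRNA1 and shRNA2) followed that order, while *Pou5f1* (774, 606 and 634 CPM) was highest in the controls. The summed levels of the marker lists for other cells were at most 7.57 CPM for fibroblasts or feeder cells, 25.7 CPM for primitive endoderm, 8.32 CPM for neural progenitors, 3.21 CPM for mesoderm and 24.6 CPM for trophoblast. The fibroblast list was at 4.60 to 4.95 CPM in the controls and 6.28 to 7.57 CPM in the KD libraries. The primitive endoderm list was at 17.1 to 19.1 CPM with shRNA2, below its 23.1 to 23.5 CPM in the controls and 21.6 to 25.7 CPM with shRNA1. The mesoderm list was at 1.94 to 2.22 CPM with shRNA1, below its 2.59 to 2.65 CPM in the controls, and the neural progenitor and trophoblast lists overlapped between the controls and each hairpin. The fibroblast marker *Col3a1* was at 0 CPM in both controls, and no marker was at 0 in all 8 libraries. The part of these differences in the results was not tested.

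Promoter sequences are shown for 4 of the 8 genes as a description, taken by symbol from the RefSeq promoter table (GRCm38.p6). Windows of the other genes are not shown, so the matches given below describe these 4 alone and not the 8 genes as a set. Each window is written 5′ to 3′ in the direction of its gene, from 250 bases before the annotated start through the first 50 bases. Capitals mark matches on either strand to GGGCGG (the GC box), CCGGAAG (a core bound by ETS factors) and CCAAT (the CCAAT box). The windows are chr2:127208136-127208435 on the plus strand for *Snrnp200*, chr2:181601069-181601368 on the plus strand for *Prpf6*, chr7:127196028-127196327 on the minus strand for *Cd2bp2* and chr11:75486527-75486826 on the plus strand for *Prpf8*.
Snrnp200 promoter: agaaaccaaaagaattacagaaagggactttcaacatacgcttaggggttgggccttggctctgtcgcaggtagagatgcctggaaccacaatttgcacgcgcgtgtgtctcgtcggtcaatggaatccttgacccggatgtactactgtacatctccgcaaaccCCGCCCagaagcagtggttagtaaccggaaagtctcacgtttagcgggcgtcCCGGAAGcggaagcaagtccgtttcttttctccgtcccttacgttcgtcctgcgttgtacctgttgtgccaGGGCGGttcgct
Prpf6 promoter: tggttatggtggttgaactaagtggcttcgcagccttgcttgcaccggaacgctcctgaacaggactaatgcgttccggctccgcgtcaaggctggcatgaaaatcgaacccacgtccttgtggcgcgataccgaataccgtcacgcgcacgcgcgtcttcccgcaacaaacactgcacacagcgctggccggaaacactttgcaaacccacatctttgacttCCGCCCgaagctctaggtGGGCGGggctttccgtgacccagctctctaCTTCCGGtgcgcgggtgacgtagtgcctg
Cd2bp2 promoter: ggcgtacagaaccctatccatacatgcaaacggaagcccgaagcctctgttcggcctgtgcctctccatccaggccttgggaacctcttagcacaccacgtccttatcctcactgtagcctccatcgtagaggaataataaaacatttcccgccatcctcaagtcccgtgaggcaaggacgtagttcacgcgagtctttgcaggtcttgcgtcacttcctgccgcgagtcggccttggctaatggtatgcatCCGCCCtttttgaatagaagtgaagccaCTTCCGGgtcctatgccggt
Prpf8 promoter: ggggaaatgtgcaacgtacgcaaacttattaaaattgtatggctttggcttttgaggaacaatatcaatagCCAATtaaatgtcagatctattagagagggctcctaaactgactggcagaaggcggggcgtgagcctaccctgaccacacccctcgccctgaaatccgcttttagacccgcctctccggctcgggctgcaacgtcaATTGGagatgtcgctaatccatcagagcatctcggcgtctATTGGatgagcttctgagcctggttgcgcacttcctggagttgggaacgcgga

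The windows of *Snrnp200*, *Prpf6* and *Cd2bp2* each held 1 match to CCGGAAG, which 8.86% of the 32851 promoter windows of the same length held. The match lay at bases 218 to 224 of the window in *Snrnp200*, 272 to 278 in *Prpf6* and 281 to 287 in *Cd2bp2*, counted from the first base printed. The same 3 windows held 2, 2 and 1 matches to GGGCGG (35.7% of all windows), none of which overlapped the CCGGAAG match. The *Prpf8* window differed in its letters, with no match to either and 3 matches to CCAAT (37.4% of all windows). The 4 windows held no match to CACGTG (7.15%), TATAAA (13.6%), TGACGTCA (1.79%), AAGATGGCG (1.4%), the Nrf1 palindrome (0.971%) or the Zbtb33 palindrome (0.466%). The matches are descriptions of these letters and not measured sites. The *Prpf6* window lies inside the span that the deposited table gives for the gene (2:181591868-181655660), so it belongs to an annotated start that is not the outermost one. Any relation between these letters and the levels given next was not tested.

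*Eftud2* lies on the minus strand of chromosome 11 of GRCm38 from 102838473 to 102880985. The GTPase that it encodes is related to the translation elongation factor Eef2 and acts when the spliceosome is activated and taken apart. Its level was 262.3 and 255.7 CPM in the nt-shRNA libraries, 231.9, 229.2 and 225.3 CPM with shRNA1, and 198.2, 202.1 and 234.7 CPM with shRNA2. All 6 KD libraries were below both controls, but the shRNA2 library at 234.7 CPM (replicate 3) was above all 3 shRNA1 libraries. The fitted fold was 0.88 with shRNA1, or -0.18 on the log2 scale (95% interval -0.32 to -0.04), with an adjusted p of 0.0514 by edgeR's quasi-likelihood test, just past the threshold of 0.05. It was 0.82 with shRNA2, or -0.29 on the log2 scale (95% interval -0.43 to -0.15, adjusted p = 0.00122, edgeR). In this bulk RNA the targeted transcript thus stood at 212 ± 20.1 CPM (SD, n = 3) with shRNA2, against 259 ± 4.64 CPM (SD, n = 2) in the controls. With shRNA1 the call depended on the settings, since it was made in 8 of 19 alternatives, with log2 values from -0.25 to -0.06, whereas the shRNA2 call was made in all 19.

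**Figure D1:**
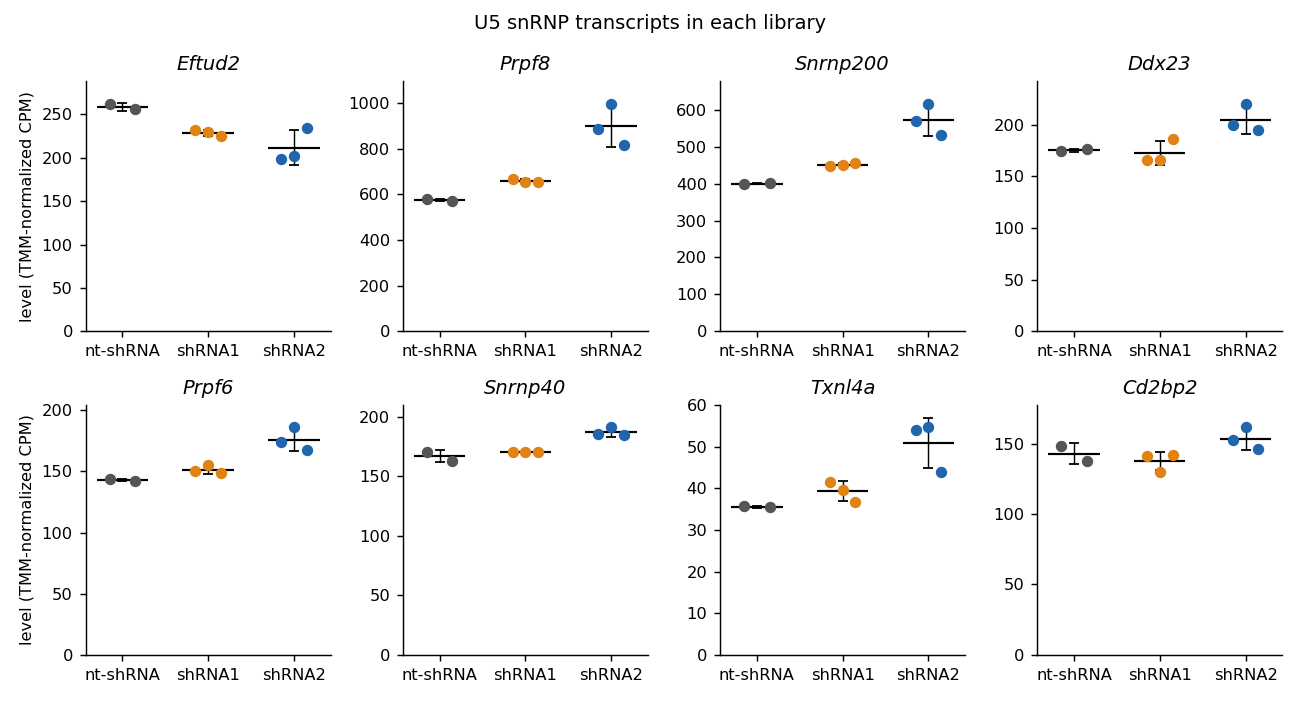
Level of each U5 snRNP transcript in CPM (vertical axes from 0, each with its own range) in the nt-shRNA, shRNA1 and shRNA2 libraries; points are libraries, horizontal lines are group means and bars are the SD. *Eftud2* was below both controls in all 6 KD libraries, while *Prpf8*, *Snrnp200*, *Prpf6* and *Txnl4a* were lowest in nt-shRNA, intermediate with shRNA1 and highest with shRNA2 without overlap.

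Most partners were higher with shRNA2, where *Eftud2* was lower. With shRNA2, 6 of the 7 were higher than in the controls and 0 were lower, in a comparison that called 27.2% of all tested genes higher and 28.7% lower. With shRNA1, *Prpf8* and *Snrnp200* were higher and 0 were lower, where 13.8% of all tested genes were called higher and 17.1% lower. The median log2 fold change of the 7 partners was 0.30 with shRNA2 and 0.09 with shRNA1, beside 0.00 and -0.01 over all tested genes. Both comparisons use the same 2 nt-shRNA libraries, so the 2 sets of values are given side by side and not as independent evidence. Changes of this size were common in these libraries, as the median absolute log2 fold change over all tested genes was 0.37 with shRNA2 and 0.22 with shRNA1.

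**Figure D2:**
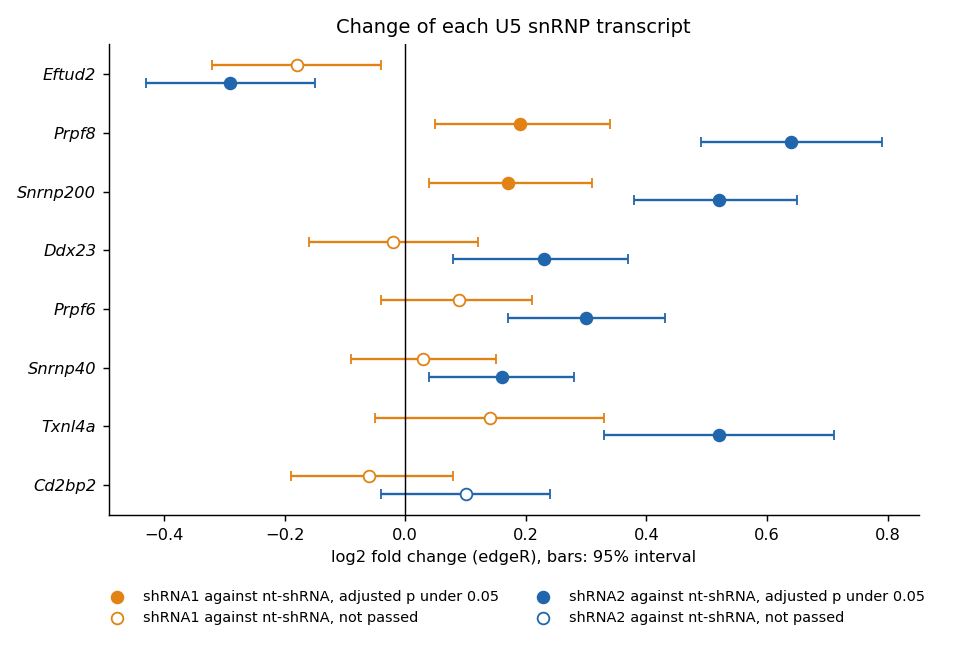
Log2 fold change (horizontal axis) of the 8 U5 snRNP transcripts against nt-shRNA, from edgeR's fit over all 8 libraries, with 95% intervals; filled points have an adjusted p under 0.05. With shRNA2 the values run from -0.29 for *Eftud2* to 0.64 for *Prpf8*, and with shRNA1 from -0.18 to 0.19.

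The scaffold *Prpf8* (11:75486816-75509449, plus strand) holds the catalytic center of the spliceosome and binds the product of *Eftud2* directly. Its level was 579.4 and 571.5 CPM with nt-shRNA, 666.0, 653.4 and 655.7 CPM with shRNA1, and 884.7, 996.2 and 815.1 CPM with shRNA2. The 3 groups did not overlap and were in the order nt-shRNA, shRNA1, shRNA2. The transcript was 1.56-fold higher with shRNA2 than with nt-shRNA (log2 0.64, 95% interval 0.49 to 0.79, SE 0.0721, adjusted p = 4.5e-07, edgeR), the largest rise among the partners. With shRNA1 it was 1.14-fold higher (log2 0.19, 95% interval 0.05 to 0.34, SE 0.0713, adjusted p = 0.0449, edgeR). Between the hairpins the difference was 0.45 on the log2 scale (95% interval 0.32 to 0.58, adjusted p = 3.6e-05, edgeR).

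*Snrnp200* (2:127208386-127240451, plus strand) encodes the helicase that unwinds U4 from U6 RNA and is held by Prpf8. Its level was 398.9 and 400.7 CPM with nt-shRNA, 447.5, 450.8 and 455.0 CPM with shRNA1, and 568.8, 616.3 and 531.8 CPM with shRNA2, again in 3 groups that did not overlap. The transcript was 1.43-fold higher with shRNA2 (log2 0.52, 95% interval 0.38 to 0.65, adjusted p = 1.8e-06, edgeR). With shRNA1 it was 1.13-fold higher (log2 0.17, 95% interval 0.04 to 0.31, adjusted p = 0.0458, edgeR). The hairpins differed by 0.34 on the log2 scale (95% interval 0.22 to 0.46, adjusted p = 1.7e-04, edgeR). The shRNA1 calls of *Prpf8* and *Snrnp200* were both near the threshold and were each lost in 8 of 19 alternatives, among them the fits without any one shRNA1 library or either control, with adjusted p-values up to 0.183 and 0.191 in edgeR. Over all 19 alternatives their log2 values stayed between 0.16 and 0.31 for *Prpf8* and between 0.14 and 0.29 for *Snrnp200*.

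*Ddx23* (15:98645134-98662894, minus strand) encodes the other helicase of the group, a DEAD-box protein that helps to displace U1 from the start of the intron. Its level was 174.0 and 176.2 CPM with nt-shRNA, 165.5, 165.6 and 186.4 CPM with shRNA1, and 199.9, 220.2 and 194.4 CPM with shRNA2. The shRNA1 libraries lay on both sides of the controls, and the shRNA2 libraries were above all others. The rise with shRNA2 was 1.17-fold (log2 0.23, 95% interval 0.08 to 0.37, adjusted p = 0.00909, edgeR), and without nt-shRNA replicate 1 it was 0.21 with an adjusted p of 0.0683 (edgeR). With shRNA1 the log2 fold change was -0.02 (95% interval -0.16 to 0.12, adjusted p = 0.847, edgeR), a range that holds small changes in either direction, and over the alternatives the value ran from -0.08 to 0.09. The direct difference between the hairpins was 0.25 on the log2 scale (95% interval 0.12 to 0.38, adjusted p = 0.00430, edgeR).

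*Prpf6* (2:181591868-181655660, plus strand) encodes a repeat protein that bridges the U5 snRNP to U4 and U6 in the tri-snRNP. Its level was 143.5 and 142.2 CPM with nt-shRNA, 150.4, 155.4 and 149.0 CPM with shRNA1, and 174.5, 186.0 and 167.7 CPM with shRNA2. The groups were ordered as for *Prpf8* and did not overlap. The rise with shRNA2 was 1.23-fold (log2 0.30, 95% interval 0.17 to 0.43, adjusted p = 3.6e-04, edgeR). With shRNA1 the log2 fold change was 0.09 (95% interval -0.04 to 0.21, adjusted p = 0.308, edgeR). That value passed in 2 of 19 alternatives, at 0.20 with library size alone (adjusted p = 0.0161, edgeR) and at 0.14 with GC offsets and the replicate block (adjusted p = 0.0441, edgeR). The hairpins differed by 0.22 on the log2 scale (95% interval 0.10 to 0.33, adjusted p = 0.00468, edgeR).

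*Snrnp40* (4:130360132-130390026, plus strand) encodes a WD-repeat protein that sits beside Prpf8. Its level was 170.9 and 163.4 CPM with nt-shRNA, 170.5, 170.7 and 171.0 CPM with shRNA1, and 185.3, 191.2 and 184.7 CPM with shRNA2. The shRNA1 values lay at that of the higher control, and only the shRNA2 libraries stood apart from both controls. The rise with shRNA2, 1.12-fold, was the smallest of those called (log2 0.16, 95% interval 0.04 to 0.28, adjusted p = 0.0210, edgeR). That call was lost with no filter on low counts (0.14, adjusted p = 0.107), without nt-shRNA replicate 1 (0.19, adjusted p = 0.0541) and without nt-shRNA replicate 2 (0.13, adjusted p = 0.195, all edgeR). With shRNA1 the log2 fold change was 0.03 (95% interval -0.09 to 0.15, adjusted p = 0.715, edgeR), and with library size alone it was 0.15 (adjusted p = 0.0493, edgeR). The difference between the hairpins was 0.13 (95% interval 0.02 to 0.24, adjusted p = 0.0513, edgeR), and it passed in 5 of 19 alternatives, among them DESeq2 (adjusted p = 0.0480).

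*Txnl4a* (18:80206795-80225855, plus strand) encodes a small protein with a thioredoxin-like fold that leaves the particle when the spliceosome is activated. Its level was 35.7 and 35.4 CPM with nt-shRNA, 41.5, 39.7 and 36.8 CPM with shRNA1, and 54.0, 54.6 and 43.9 CPM with shRNA2. The groups did not overlap, although shRNA2 replicate 3 stood nearer to shRNA1 than the other two did. The rise with shRNA2 was 1.43-fold (log2 0.52, 95% interval 0.33 to 0.71, adjusted p = 8.3e-05, edgeR), as large as that of *Snrnp200*. With shRNA1 the log2 fold change was 0.14 (95% interval -0.05 to 0.33, adjusted p = 0.242, edgeR). Over the 19 alternatives that value ran from 0.10 to 0.29, and it passed the threshold in 4 of them, with library size alone and in each fit with the replicate block. The hairpins differed by 0.37 on the log2 scale (95% interval 0.20 to 0.54, adjusted p = 0.00154, edgeR). Of the exon bases of *Txnl4a*, 10.1% are shared with *Gm16286*, a gene on the same strand, and fragments there could be assigned to neither gene, so the *Txnl4a* values leave out part of the transcript. *Gm16286* had 1745 to 2644 counts in the libraries and was higher with shRNA2 (log2 0.26, adjusted p = 0.00329, edgeR). The other 7 genes share 0 exon bases with another gene of the table.

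*Cd2bp2* (7:127191660-127196050, minus strand) encodes a protein that binds the free U5 snRNP and is absent from the tri-snRNP. Its level was 148.3 and 137.5 CPM with nt-shRNA, 141.0, 129.9 and 141.6 CPM with shRNA1, and 152.3, 161.4 and 146.0 CPM with shRNA2. It was the 1 partner whose shRNA2 libraries overlapped the controls. The log2 fold change was 0.10 with shRNA2 (95% interval -0.04 to 0.24, adjusted p = 0.199, edgeR) and -0.06 with shRNA1 (95% interval -0.19 to 0.08, adjusted p = 0.554, edgeR). The upper bounds are below the shRNA2 change of *Prpf8*, and the intervals hold small changes in either direction. With GC content offsets, an alternative chosen after seeing the data, the shRNA2 value was 0.19 (adjusted p = 0.00853, edgeR), and with library size alone it was also 0.19 (adjusted p = 0.0136, edgeR). Without nt-shRNA replicate 2 it was 0.04 (adjusted p = 0.713, edgeR). Between the hairpins *Cd2bp2* differed by 0.16 on the log2 scale (95% interval 0.03 to 0.28, adjusted p = 0.0449, edgeR), a call that was lost in 10 of 19 alternatives.

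The hairpins were compared directly because one partner can pass the test with shRNA2 and miss it with shRNA1 without a difference between them. Of the 7 partners, 6 were higher with shRNA2 than with shRNA1 and 0 were lower, while 16.9% of all tested genes were called higher and 18.7% lower in that test. *Eftud2* itself differed by -0.11 on the log2 scale (95% interval -0.24 to 0.02, adjusted p = 0.164, edgeR), and without shRNA2 replicate 3 by -0.19 (adjusted p = 0.0127, edgeR). In the values themselves, all 3 shRNA2 libraries were above all 3 shRNA1 libraries for all 7 partners, against 23.6% of tested genes. Against the controls, 6 partners were wholly above with shRNA2 (35.4% of tested genes) and 4 with shRNA1 (26.6%). *Eftud2* was wholly below with both, as were 36.0% of tested genes with shRNA2 and 30.2% with shRNA1. The order nt-shRNA, shRNA1, shRNA2 without overlap held for 4 partners, *Prpf8*, *Snrnp200*, *Prpf6* and *Txnl4a*, and for 9.97% of tested genes.

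**Figure D3:**
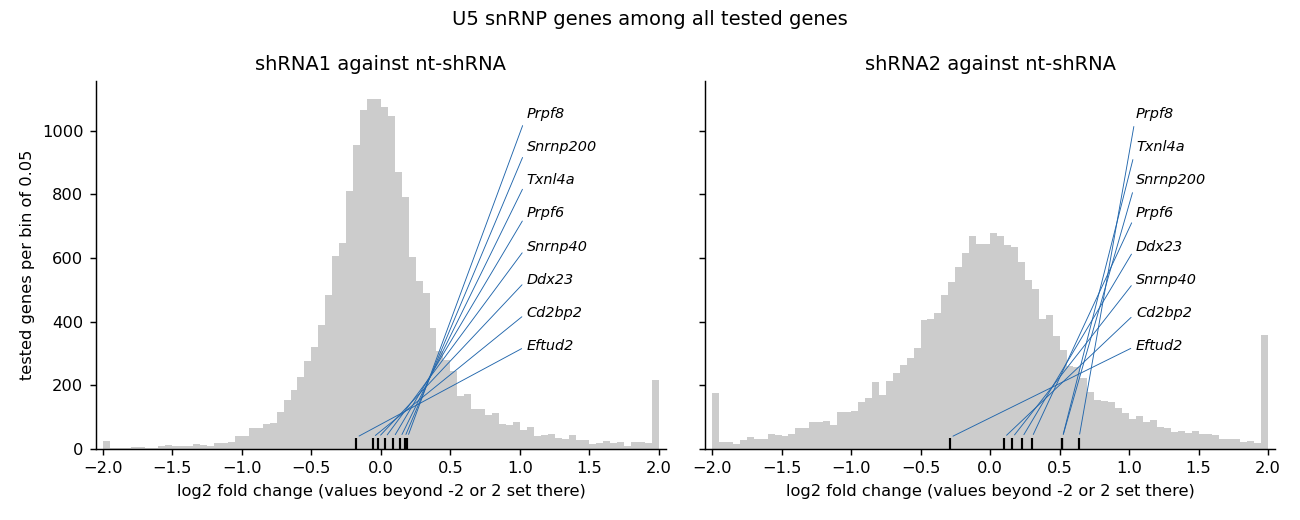
Histograms of the log2 fold change of all 17445 tested genes with shRNA1 (left) and shRNA2 (right) against nt-shRNA, in bins of 0.05, with black ticks for the 8 U5 snRNP genes. Every named gene lies within the body of the distribution, and with shRNA2 *Prpf8*, the highest of them, was above 85.5% of all tested genes.

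Among all tested genes, the shRNA2 change of *Prpf8* stood above that of 85.5%, *Snrnp200* above 81.7% and *Txnl4a* above 81.6%. At the other end, *Cd2bp2* was above 57.5% and *Eftud2* above 29.3%. The targeted transcript was therefore not among the most reduced in these libraries. By qPCR, normalized to mitochondrial rRNA and not to the library total, the study reported a larger loss of this transcript with each hairpin. By western blotting it reported less of the protein. The study also showed the knockdown in its RNA-seq by DESeq2, and those values are not compared here. The reason for the smaller change in these counts was not tested. Levels also differed inside the shRNA2 group. Replicate 3, which had the highest *Eftud2* level of the 3 shRNA2 libraries, had the lowest level of all 7 partners. That library also lay nearest to the controls over all tested genes, with a median absolute log2 difference of 0.33 from the nt-shRNA mean, beside 0.37 and 0.41 in the other two. The part of this overall difference in the partners' values was not tested. Without that library the shRNA2 calls of *Eftud2* and the 6 partners were all kept.

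The balance between the partners and *Eftud2* was followed as the ratio of each partner to *Eftud2* within a library. Relative to the nt-shRNA mean, the log2 ratio of *Prpf8* to *Eftud2* was -0.01 and 0.01 in the controls, 0.37, 0.36 and 0.39 with shRNA1, and 1.01, 1.15 and 0.64 with shRNA2. The mean with shRNA2, 0.93 ± 0.261 (SD, n = 3), is a 1.91-fold shift in the balance of the 2 transcripts. The mean shRNA2 log2 ratio was 0.81 for *Snrnp200*, 0.80 for *Txnl4a*, 0.60 for *Prpf6*, 0.52 for *Ddx23*, 0.46 for *Snrnp40* and 0.40 for *Cd2bp2*. With shRNA1 the means ran from 0.12 for *Cd2bp2* to 0.37 for *Prpf8*. For 6 partners the ratio in every KD library was above both controls, and for *Cd2bp2* shRNA1 replicate 2 was level with the higher control at 0.04. *Eftud2* itself was at -0.18 with shRNA1 and -0.29 with shRNA2 on the log2 scale. A gene with no change would therefore also have a raised ratio, and the share of all tested genes above the controls was not computed. Because all the ratios share the *Eftud2* value, they are descriptions of the balance and were not tested.

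**Figure D4:**
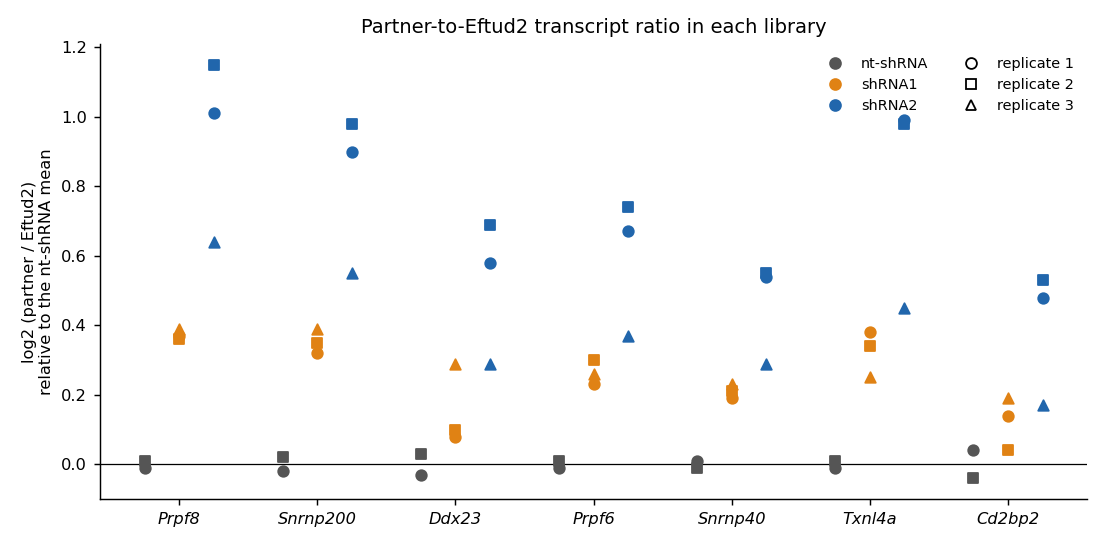
Log2 ratio of each partner to *Eftud2* within a library, relative to the mean of the nt-shRNA libraries (vertical axis), for each partner (horizontal axis); colours are the groups and shapes the replicate numbers. The shRNA2 ratios of *Prpf8* run from 0.64 to 1.15 and those of *Cd2bp2* from 0.17 to 0.53, while the controls lie between -0.04 and 0.04.

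Levels were compared between genes per kilobase of the deposited exon length. Over all 8 libraries *Prpf8* had the highest mean, 97.5 CPM per kilobase, followed by *Snrnp200* (61.9), *Snrnp40* (44.1), *Prpf6* (41.1), *Cd2bp2* (36.2), *Ddx23* (29.7), *Eftud2* (27.4) and *Txnl4a* (9.47). Of the neighbours in this order, only *Snrnp200* and *Snrnp40*, and *Eftud2* and *Txnl4a*, had ranges that did not overlap. These means pool KD and control libraries, and in the controls alone *Eftud2* (30.9 CPM per kilobase) was above *Ddx23* (28.1) in both libraries, the reverse of the pooled order. The order also depends on the length used. The deposited length of *Eftud2*, 8395 bases, joins the exons of all its transcripts, 7 of 13 of which are annotated as retained introns, whereas its longest coding mRNA has 3339 bases. With the longest coding mRNA, a length chosen after seeing the data, *Snrnp40* came first (111 CPM per kilobase), *Prpf8* next (97.8) and *Eftud2* moved from place 7 to place 4 (68.9), and only *Cd2bp2* and *Txnl4a* were separate neighbours. With this length the controls alone had *Snrnp40* at 106, *Eftud2* at 77.6, *Prpf8* at 77.3 and *Snrnp200* at 59.3 CPM per kilobase, whereas with shRNA2 *Eftud2* stood at 63.4, and *Prpf8* (121) and *Snrnp40* (118) overlapped. *Txnl4a* was lowest with both lengths, in the pooled means and in each group.

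The genes whose pattern over the 8 libraries was most like that of *Eftud2*, by Pearson correlation of log2 CPM, were *Spg7* (r = 0.993), *Cyp39a1* (0.977), *Inafm2* (0.975), *Gm2093* (0.975) and *Cdc25c* (0.974), none of them a U5 partner. The 8 points are libraries of only 3 groups, so these values describe likeness alone, and with Spearman's rank correlation 0 of the 5 stayed among the first 5. All 7 partners had negative values, from -0.893 for *Txnl4a* to -0.507 for *Cd2bp2*. Negative values were common among the tested genes, and their share was not computed, so this count does not set the partners apart. *Txnl4a* took place 17043 of 17444 in the order of likeness, *Snrnp200* place 16958, *Prpf8* place 16666 and *Prpf6* place 16412. *Snrnp40* took place 14678, *Ddx23* place 13511 and *Cd2bp2* place 11809, so many other genes were less like *Eftud2* than these partners.

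The proteins that the U5 snRNP works with were followed in 4 companion lists. Their counts are to be read against the shares of all tested genes, 27.2% higher and 28.7% lower with shRNA2, 13.8% higher and 17.1% lower with shRNA1. The Sm ring, the 7 small proteins that close around the U5 RNA, had 4 members higher and 0 lower with shRNA2, with a median log2 fold change of 0.23. The examples were *Snrpf* (log2 0.29, adjusted p = 0.00611, edgeR) and *Snrpd1* (0.26, adjusted p = 0.00288, edgeR). With shRNA1, 0 were higher and 1 was lower, with a median of 0.03.

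Of 9 proteins of U4/U6 and the tri-snRNP, 6 were higher and 1 was lower with shRNA2 (27.2% and 28.7% of all tested genes), with a median of 0.25. *Prpf3*, a U4/U6 protein, rose more than any of the U5 genes, from 76.0 CPM in the controls to 107 CPM with shRNA1 (log2 0.49, adjusted p = 4.0e-04, edgeR) and 169 CPM with shRNA2 (log2 1.15, adjusted p = 4.9e-09, edgeR). *Sart1*, needed to bring the tri-snRNP into the spliceosome, rose as well. Its log2 fold change was 0.81 for shRNA2 (adjusted p = 6.6e-08, edgeR) and 0.40 for shRNA1 (adjusted p = 6.6e-04, edgeR). They were the 2 of this list called higher with shRNA1, where the median was 0.05 and 0 were lower (13.8% of all tested genes were higher and 17.1% lower).

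Of 9 U5 assembly and recycling factors, 4 were higher and 0 lower with shRNA2 (27.2% and 28.7% of all tested genes), but the median was -0.01, since the other 5 had values between -0.12 and -0.01. *Aar2*, which holds Prpf8 during assembly of the particle, rose from 23.6 CPM to 32.9 CPM with shRNA1 (log2 0.48, adjusted p = 2.7e-04, edgeR) and 39.8 CPM with shRNA2 (log2 0.76, adjusted p = 3.7e-07, edgeR). *Rpap3*, part of a co-chaperone of HSP90, rose with shRNA2 (0.38, adjusted p = 1.6e-04, edgeR) and was at 0.16 with shRNA1 (adjusted p = 0.0926, edgeR). With shRNA1, 1 was higher and 1 lower in this list, near the 13.8% and 17.1% of all tested genes, with a median of -0.07.

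Of 4 relatives of U5 proteins that work outside the spliceosome, 0 were higher and 1 was lower with each hairpin, where 17.1% of all tested genes were lower with shRNA1 and 28.7% with shRNA2, so the count does not set the list apart. *Eef2*, the elongation factor related to *Eftud2*, fell by 0.45 on the log2 scale with shRNA1 (6183 to 4512 CPM, adjusted p = 9.9e-05, edgeR) and by 0.60 with shRNA2 (to 4072 CPM, adjusted p = 9.2e-07, edgeR). *Txnl4b*, related to *Txnl4a*, was at 0.11 with shRNA2 (adjusted p = 0.550, edgeR). The median of the 4 was -0.03 with shRNA1 and 0.05 with shRNA2. When the hairpins were set against each other, 5 Sm proteins, 5 tri-snRNP proteins, 4 assembly factors and 0 relatives were higher with shRNA2, and 0 of any list were lower, against 16.9% and 18.7% of all tested genes, beside medians of 0.17, 0.17, 0.12 and -0.06. Without shRNA2 replicate 2 the first 2 counts were both 2, in a fit that called 1988 of 17237 tested genes higher and 2318 lower.

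**Figure D5:**
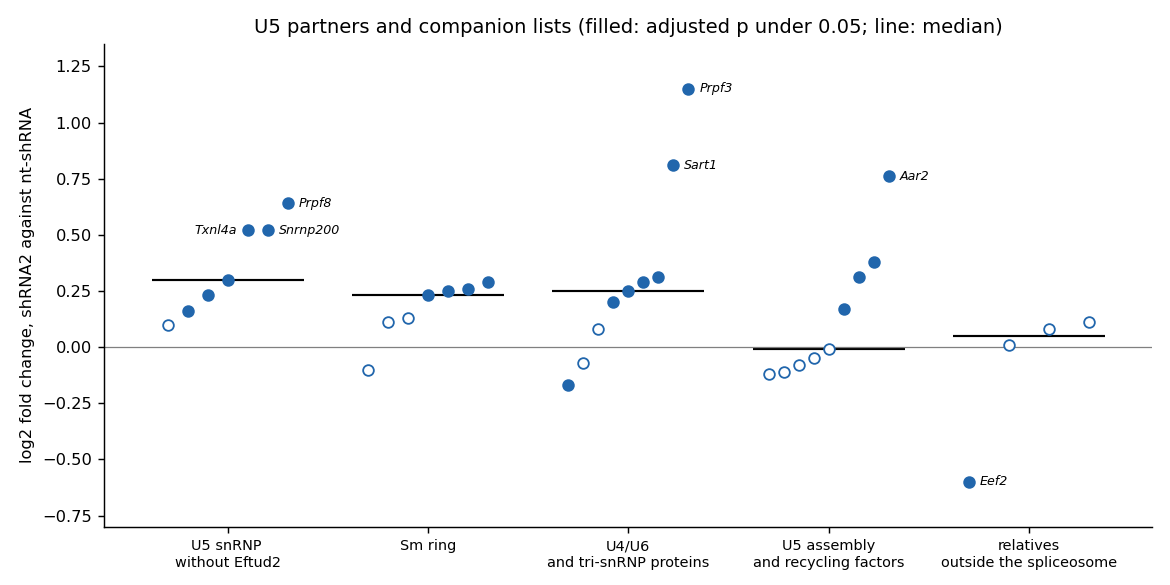
Log2 fold change with shRNA2 against nt-shRNA (vertical axis) for the U5 partners and the 4 companion lists; filled points have an adjusted p under 0.05 in edgeR and lines are medians. *Prpf3* (1.15), *Sart1* (0.81) and *Aar2* (0.76) lie above *Prpf8* (0.64), and *Eef2* (-0.60) lies lowest.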

How the data were processed

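RNA-seq was performed on 8 libraries of R1 mESCs. The authors aligned reads with STAR and deposited raw counts per gene from featureCounts 1.6.2 (GENCODE M24, GRCm38), made without strand and without fragments that aligned repeatedly or fell on several genes. The other deposited column used, gene length, was set by the authors' annotation. Columns were matched to samples by title, and symbols were found in GENCODE M21 for 55144 of 55385 genes. The U5 genes and the companion lists were chosen with earlier results of these data known.

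The test was edgeR 4.0.16 in R 4.3.3. After filterByExpr with a minimum count of 10, TMM factors were 0.935 to 1.04, and genes were tested over all 8 libraries with glmQLFit and glmQLFTest, with 1 coefficient per group and no block. P-values were adjusted by Benjamini-Hochberg over 17445 genes, with a threshold of 0.05. The biological coefficient of variation was 0.064. The code was tested on simulated data. Chi-square values per gene between replicates of the same group were 3.12 to 12.0, so no library repeats another of its group. Pairs across groups were not compared in this way. Log2 CPM values for likeness used a prior count of 2.

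The genes named are the 8 U5 genes, the 2 of each companion list with the largest absolute log2 fold change under shRNA2, and the 5 most like *Eftud2*, beside *Gm16286*, *Nanog*, *Pou5f1* and *Col3a1*, which were chosen after their values were seen. Alternatives were DESeq2 1.42.0, edgeR with the size factors of DESeq2 or with library size alone, 2 other filters, only the groups compared, the replicate block, length offsets, and each library left out. GC content offsets, without and with the block, and the mRNA length were added after the data were seen. Figures were drawn with matplotlib 3.10.9. Splicing was not analysed here.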

Additional observations from a re-analysis of the deposited data

Results flagged for a closer look

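For 6 partners the response to the 2 hairpins differed when shRNA2 was tested directly against shRNA1 by edgeR, with 3 libraries in each group. That test called 16.9% of all tested genes higher and 18.7% lower. For 23.6% of tested genes, all 3 shRNA2 libraries were above all 3 shRNA1 libraries. The log2 difference was 0.45 for *Prpf8*, 0.37 for *Txnl4a*, 0.34 for *Snrnp200*, 0.25 for *Ddx23*, 0.22 for *Prpf6* and 0.16 for *Cd2bp2*, in each case higher with shRNA2 in all 3 libraries. The first 5 were called in all 19 alternatives, with the log2 difference of *Prpf8* between 0.37 and 0.51. *Cd2bp2* was called in 9 of 19.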

How the results depend on the processing

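Over 19 alternatives, 402 of 456 values of the 8 U5 genes kept their side of the threshold, 30 lost a call, 24 gained one and 0 reversed a called direction. With shRNA2, *Eftud2*, *Prpf8*, *Snrnp200*, *Prpf6* and *Txnl4a* were called in all 19. With shRNA1, *Eftud2* (-0.18, adjusted p = 0.0514 by edgeR) passed with no filter (-0.18), with only the groups compared (-0.16), with length offsets (-0.22), with length offsets and the block (-0.25) and with GC offsets and the block (-0.18), and 1 gene was then lower in place of 0. It ran from -0.20 to -0.16 as libraries were left out (0 to 1 gene lower), and passed without shRNA2 replicate 2 (0.0415) or 3 (0.0215). Against shRNA1, *Eftud2* with shRNA2 ran from -0.19 to -0.07, and 0 to 1 gene was lower. The count of U5 genes higher with shRNA1, 2, was 5 with library size alone, 0 with length offsets, 1 with length offsets and the block, 4 with GC offsets and the block, and 0 to 2 as libraries were left out (0 without any shRNA1 library, shRNA2 replicate 1 or either control). The cause was not tested.

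Library size alone moved the median of all genes to 0.11 with shRNA1 and 0.09 with shRNA2, the share of calls that were higher from 44.7% to 70.5% and from 48.7% to 58.9%, and *Eftud2* with shRNA1 to -0.06 (adjusted p = 0.496, edgeR), so the shRNA1 values of the partners are to be read relative to that shift. It gave 4098 higher and 1718 lower genes with shRNA1, against 2407 and 2981. Without nt-shRNA replicate 1 these counts were 1248 and 1700, and without replicate 2 they were 1531 and 2077. Leaving out a control leaves 1, which is then assumed to vary like the other groups.

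With the replicate number as a block, *Eftud2* was at -0.21 with shRNA1 (adjusted p = 0.0206, edgeR), *Txnl4a* at 0.22 (adjusted p = 0.0305, edgeR; 0.24 and 0.29 with length or GC offsets added), 3 U5 genes were higher and 1 lower, and 2694 and 3324 genes were called. Deviations of same-numbered libraries correlated between -0.03 and 0.07, too little to treat them as pairs here, and the labels do not say what a number shares. The study paired replicates for qPCR, and does not say whether these numbers carry that pairing. Between the hairpins, 3 of 3 shRNA1 and 2 of 3 shRNA2 libraries correlated best with their own number, where unrelated numbers would average 1 of 3. The 2 counts come from the same small correlations, so they are not separate evidence and do not decide whether the libraries are paired.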
